A study of Sus scrofa with 18 samples.

Results

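The glutathione transferase genes GSTA1 and GSTM3 and the glutathione peroxidase genes GPX1 and GPX3 were followed in porcine endometrium, the lining of the uterus, through the peri-implantation period and placentation. Their 6 probe sets are all those among the 24123 of the Affymetrix porcine GeneChip to which the platform annotation gives 1 of these symbols, and GSTP1 was left out because no probe set carries that symbol there. The members were chosen by their levels on these same arrays, and GSTA1 also because its probe sets disagree, so their levels, their changes between days and their differences between breeds are given as a description, without a test. All 6 probe sets passed the filter on dim values, an intensity above 100 on at least 6 of the 18 arrays.

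Glutathione is a small thiol peptide that cells use to neutralise electrophiles and peroxides. Glutathione transferases join it to reactive or hydrophobic molecules. Glutathione peroxidases, most of them selenoproteins, use it to reduce hydrogen peroxide and lipid peroxides. The endometrium secretes nutrients and protective proteins into the uterine lumen, on which the porcine conceptus depends before and after the placenta forms.

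The samples were endometrium of Meishan gilts, a prolific Chinese breed, and of Yorkshire gilts, a less prolific Western breed, each mated to boars of their own breed, at gestational day (GD) 15, 26 or 50. The 6 groups of breed and day had 3 arrays each. For each array the RNA of 1 conceptus attachment site was pooled across 2 gilts, and 1 pair of gilts supplied all 3 arrays in a group. The p-values therefore measure the spread between sites of the same animals, not between animals. The ages of the gilts were not given beyond being similar.

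Libraries and tissue markers differed between the groups in ways that touch the values below. The Yorkshire GD26 and GD50 arrays had a median log2 intensity of 7.78 to 8.13 over the tested probe sets, against 8.31 to 8.40 on the other 12 arrays, and their hybridization controls were brighter, at 11.71 to 13.67 against 9.997 to 11.33. The median change over all 9320 tested probe sets was −0.47 in Yorkshire GD26 against GD15, −0.42 for Yorkshire against Meishan at GD26 and −0.46 at GD50, and between −0.07 and −0.02 in the other comparisons. Of the called probe sets, 68.9% fell in Yorkshire GD26 against GD15 as deposited, 56.9% after quantile normalization and 51.4% after centring each array on its median. For Yorkshire against Meishan the share that was lower was 79.8%, 62.8% and 53.7% at GD26, and 80.7%, 62.0% and 51.9% at GD50. Markers of endometrial epithelium and glands were present in every group. They summed to 77515 to 149988 over the 13 of 16 genes with a probe set. From GD15 to GD26, 6 of their 15 tested probe sets rose and 4 fell in Meishan, against 23.8% and 27% of all. In Yorkshire 7 rose and 6 fell, against 20.3% and 44.9%. Markers of trophoblast and placenta, 9 of 16 with a probe set, summed to 307 to 443 at GD15 and to 40888 to 89535 at GD26 and GD50, where 6 of the 9 were above 100 and GCM1 was near the floor. In bulk tissue, fewer cells of a type and less RNA per cell cannot be told apart, and the part of placental tissue in the changes after GD15 was not tested.

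The alpha-class transferase GSTA1, which conjugates electrophiles and reduces lipid hydroperoxides, was represented by 3 probe sets that gave 3 different pictures. On the first, Ssc.16377.1.A1_s_at, the signal was high in both breeds at GD15 and low in both at GD50, and the breeds parted at GD26. The suffix _s_at marks a probe set whose probes can bind transcripts of more than 1 gene. In the RefSeq annotation of the assembly Sscrofa11.1, the protein-coding loci LOC100526118 and LOC100510917 lie between GSTA1 and the related gene GSTA4. These positions do not tell which transcripts the probes bind. No probe sequences were used here, so which gene a value under this symbol belongs to is uncertain.

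On Ssc.16377.1.A1_s_at the Meishan GD15 arrays of GSTA1 read 6593, 6436 and 5502, the GD26 arrays 644, 769 and 1123, and the GD50 arrays 46.3, 48.2 and 74.4. The Yorkshire arrays read 4517, 4361 and 5102 at GD15, 4797, 4104 and 5853 at GD26, and 109, 141 and 199 at GD50. The Meishan groups did not overlap at any step, whereas the Yorkshire GD15 and GD26 arrays overlapped and only GD50 was apart. The Meishan level was 7.49-fold lower at GD26 than at GD15 (log2 −2.90 ± 0.24, SE, n = 3 a group) and then at least 8.22-fold lower at GD50, with an intensity of 100 in place of a group mean under 100, as in every fold below written as at least. The Yorkshire level differed by 0.07 ± 0.24 between GD15 and GD26 and was 33.6-fold lower at GD50 (log2 −5.07 ± 0.24). From GD15 to GD50 the fall came to at least 61.6-fold in Meishan and 32.1-fold in Yorkshire. At GD26 the Yorkshire signal was 5.92-fold above the Meishan signal (log2 2.57 ± 0.25).

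The second GSTA1 probe set, Ssc.8516.1.A1_at, was bright in Yorkshire and dim in Meishan. The Meishan arrays read 226, 318 and 305 at GD15, 7.68, 6.37 and 12.4 at GD26, and 12.4, 7.68 and 7.75 at GD50. The Yorkshire arrays read 2812, 2967 and 3021 at GD15, 8861, 5689 and 7238 at GD26, and 80.0, 63.1 and 140.4 at GD50. Every Yorkshire array lay above every Meishan array of the same day, and the highest group was Yorkshire GD26, not a GD15 group. The Yorkshire level was 2.44-fold higher at GD26 than at GD15 (log2 1.29 ± 0.29) and at least 71.5-fold lower at GD50, where 1 of the 3 arrays was above 100, while the Meishan level was at least 2.80-fold lower at GD26 and had no measurable order afterwards. Yorkshire stood 10.5-fold above Meishan at GD15 and at least 71.5-fold above it at GD26. At GD50 no fold can be given, since both group means lay under 100.

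The third, Ssc.16377.2.A1_at is called GSTA3 in the study's own annotation and was dim in Meishan throughout. Its Yorkshire arrays read 542, 658 and 490.1 at GD15, 271, 111 and 82.1 at GD26, and 19.2, 16.3 and 30.9 at GD50. In Meishan only 1 array exceeded 100, at 106 on GD15, and the other 8 read from 9.21 to 65.4. It thus fell from GD15 on in Yorkshire, by 4.14-fold at GD26 (log2 −2.05 ± 0.41) and by at least 1.35-fold at GD50, at the step where the first probe set stayed level and the second was higher. The Yorkshire GD15 level was at least 5.59-fold above the Meishan one. All 3 probe sets shared the low GD50 level in both breeds, and they differed in the order of GD15 and GD26 in Yorkshire and in which breed was brighter at GD15.

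**Figure D1:**
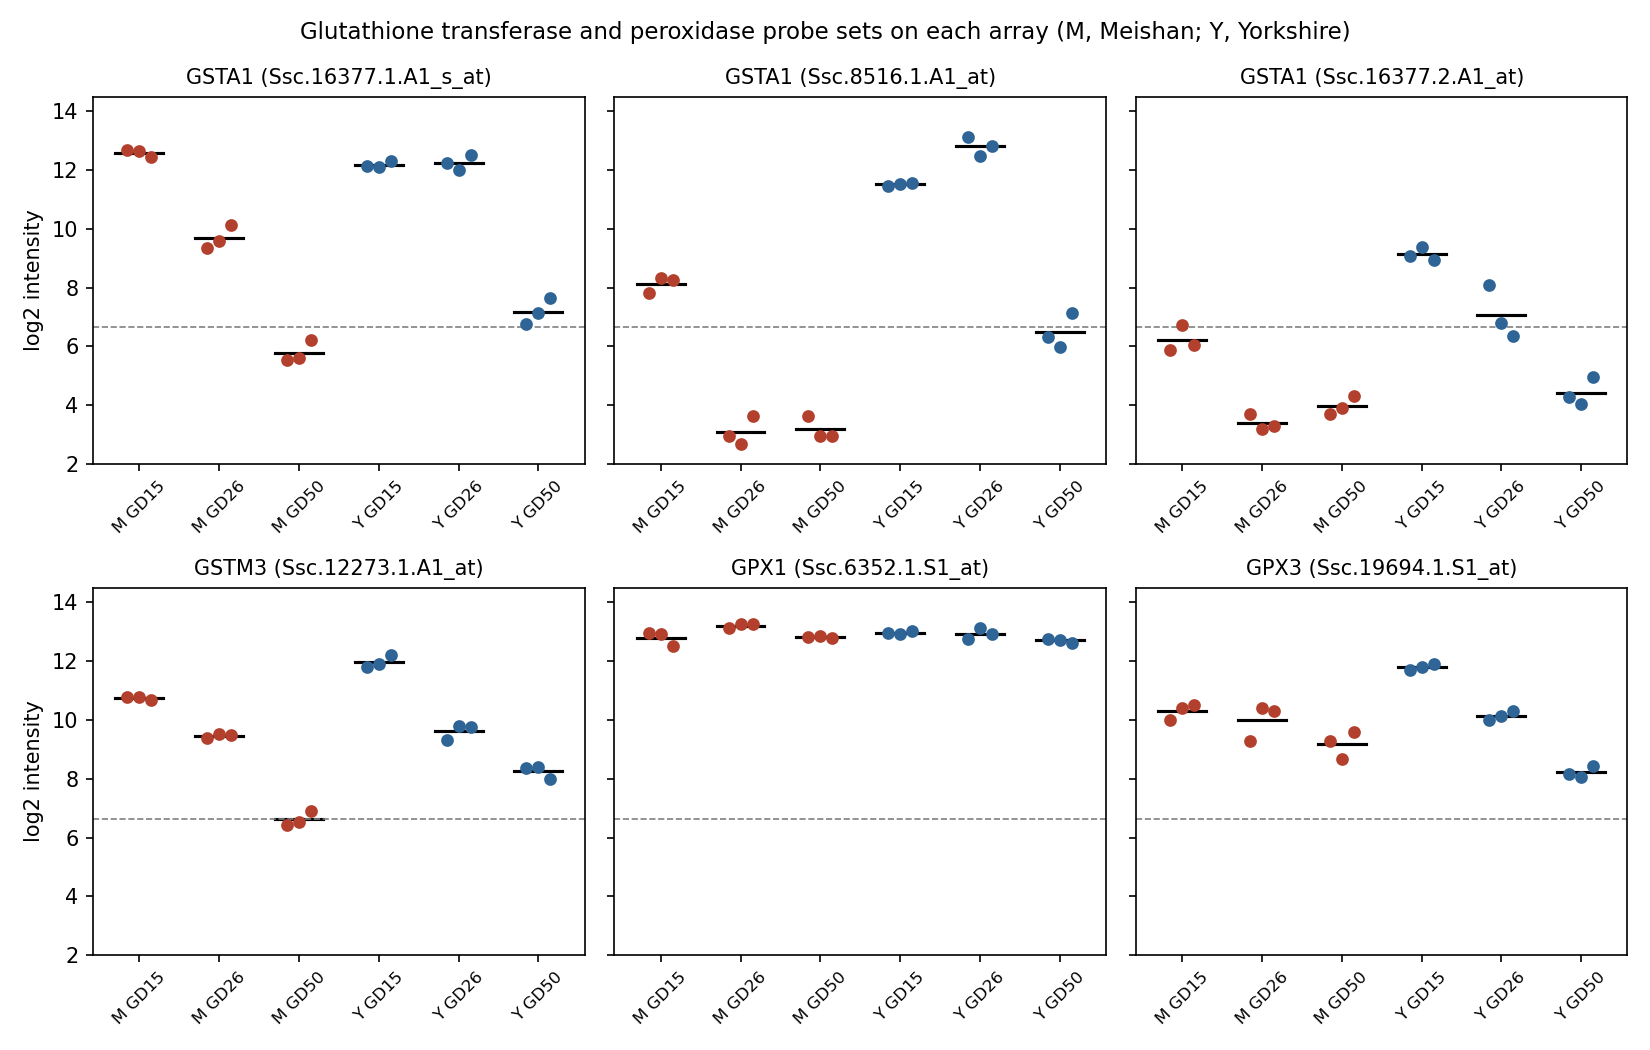
Log2 intensity (y axis) of each glutathione transferase and peroxidase probe set on each of the 18 arrays, by breed and gestational day (x axis; M, Meishan; Y, Yorkshire). Points are arrays, bars are group means of 3 arrays and the dashed line is an intensity of 100. From Yorkshire GD15 to GD26 the GSTA1 means go from 12.18 to 12.25, from 11.52 to 12.80 and from 9.13 to 7.08 on the 3 probe sets, and GPX1 stays between 12.71 and 13.21 in every group.

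GSTM3, a mu-class transferase, fell stepwise in both breeds on its 1 probe set, Ssc.12273.1.A1_at. The Meishan arrays read 1778, 1753 and 1659 at GD15, 663, 728 and 714 at GD26, and 85.2, 92.6 and 120.2 at GD50. The Yorkshire arrays read 3589, 3849 and 4738 at GD15, 641, 888 and 864 at GD26, and 329, 335 and 257 at GD50. The 3 days of a breed did not overlap in either breed, and the breeds overlapped only at GD26. In Meishan the larger part of the fall came after GD26, with log2 changes of −1.30 ± 0.15 and then −2.83 ± 0.15, the latter to a GD50 mean of 98.3, just under 100. In Yorkshire it came before GD26, with −2.35 ± 0.20 and then −1.37 ± 0.20. Over the whole course GSTM3 ended at least 17.3-fold lower in Meishan and 13.2-fold lower in Yorkshire.

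GPX1, the abundant intracellular selenoperoxidase that reduces hydrogen peroxide, kept nearly the same level in the 6 groups on Ssc.6352.1.S1_at. The Meishan arrays of GPX1 read 7985, 7707 and 5878 at GD15, 8879, 9797 and 9857 at GD26, and 7238, 7491 and 7101 at GD50. The Yorkshire arrays read 7886, 7869 and 8287 at GD15, 6848, 9046 and 7834 at GD26, and 6952, 6739 and 6366 at GD50. Only Meishan GD26 stood apart from its neighbours, 1.33-fold above GD15 (log2 0.41 ± 0.14) and 1.31-fold above GD50. In Yorkshire the changes were −0.03 ± 0.16 and −0.23 ± 0.16.

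GPX3, the secreted peroxidase of plasma and extracellular fluid, was stepwise lower in Yorkshire and changed less in Meishan on Ssc.19694.1.S1_at. The Meishan arrays read 1024, 1366 and 1453 at GD15, 626, 1351 and 1266 at GD26, and 631, 413 and 775 at GD50. The Yorkshire arrays read 3303, 3559 and 3841 at GD15, 1014, 1123 and 1276 at GD26, and 289, 267 and 342 at GD50. The Yorkshire days were fully apart, whereas in Meishan neighbouring days overlapped and only GD15 and GD50 did not. The Yorkshire changes were −1.65 ± 0.17 and −1.93 ± 0.17 on the log2 scale, against −0.31 ± 0.32 and −0.80 ± 0.32 in Meishan. GPX3 ended 11.96-fold lower in Yorkshire and 2.16-fold lower in Meishan, and the Yorkshire change minus the Meishan change was −1.34 ± 0.38 for the first step and −1.13 ± 0.38 for the second.

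**Figure D2:**
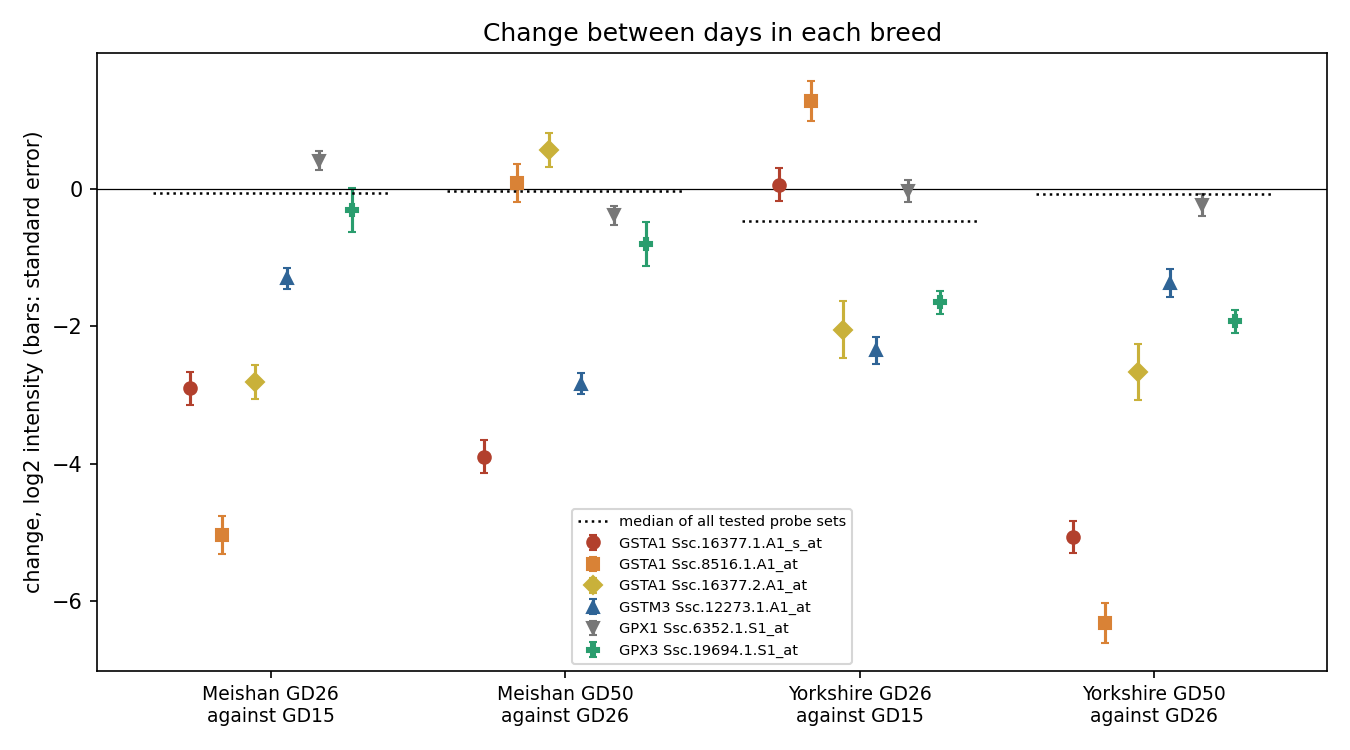
Change in log2 intensity (y axis) between neighbouring gestational days in each breed (x axis) for the 6 probe sets, with standard errors as bars and the median of all 9320 tested probe sets as a dotted line. GSTA1 Ssc.8516.1.A1_at lies at −5.05 in Meishan, a change to values under 100 that measures no size, and at 1.29 in Yorkshire for GD26 against GD15, and both GPX1 changes in Yorkshire lie near 0.

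By the threshold used for all genes, a limma adjusted p under 0.05, 4 of the 6 probe sets fell and 1 rose in Meishan GD26 against GD15, where 27% of all 9320 tested probe sets fell and 23.8% rose. In Meishan GD50 against GD26, 2 of the 6 fell and 0 rose, against 10.2% and 8.17% of all. In Yorkshire GD26 against GD15, 3 of the 6 fell and 1 rose, against 44.9% and 20.3%. In Yorkshire GD50 against GD26, 5 of the 6 fell and 0 rose, against 7.86% and 5.73%. The 3 GSTA1 probe sets are not independent, and these counts describe a set that was picked for its changes, so nothing is read from them.

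The breeds were set side by side at each day for GSTM3, GPX1 and GPX3, also as a description, since the genes were chosen by these levels. At GD15 every Yorkshire array of GSTM3 and of GPX3 lay above every Meishan array, with GSTM3 2.33-fold higher (log2 1.22 ± 0.17) and GPX3 2.81-fold higher (log2 1.49 ± 0.27). At GD26 the breeds overlapped in both genes, with log2 differences of 0.17 ± 0.17 for GSTM3 and 0.15 ± 0.27 for GPX3, and after median centring the GSTM3 difference was 0.52. At GD50 the groups were again apart, in opposite directions. GSTM3 was at least 3.05-fold higher in Yorkshire (log2 1.63 ± 0.17), and GPX3 was 1.97-fold lower there (log2 −0.98 ± 0.27). The GPX3 difference at GD50 was smaller under other scalings of the arrays, at −0.56 after median centring and −0.62 after quantile normalization. Of the 12 leukocyte markers, 7 had a probe set. They summed to 6002 to 11751 in Yorkshire GD15 against 508 to 1132 in Meishan GD15, mostly S100A9. Of their 2 probe sets past the filter, 1 was higher and 1 lower in Yorkshire at GD15, against 4.92% and 4.88% of all. The part of leukocytes in the GD15 comparison was not tested.

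The GPX1 levels of the breeds overlapped at GD15 and GD26, and at GD50 the 3 Yorkshire arrays lay just under the 3 Meishan ones. The Yorkshire minus Meishan differences of GPX1 were 0.17 at GD15, −0.27 at GD26 and −0.12 at GD50, each ± 0.14. The signs at GD26 and GD50 turned to 0.079 and 0.29 after median centring. By the threshold used for all genes, 2 of these 3 probe sets were higher and 0 lower in Yorkshire at GD15, where 4.92% of all tested probe sets were higher and 4.88% lower. At GD26 the counts were 0 and 0, against 10.7% higher and 42.5% lower, and at GD50 they were 1 and 1, against 10.9% and 45.6%. Nothing is read from these counts either.

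**Figure D3:**
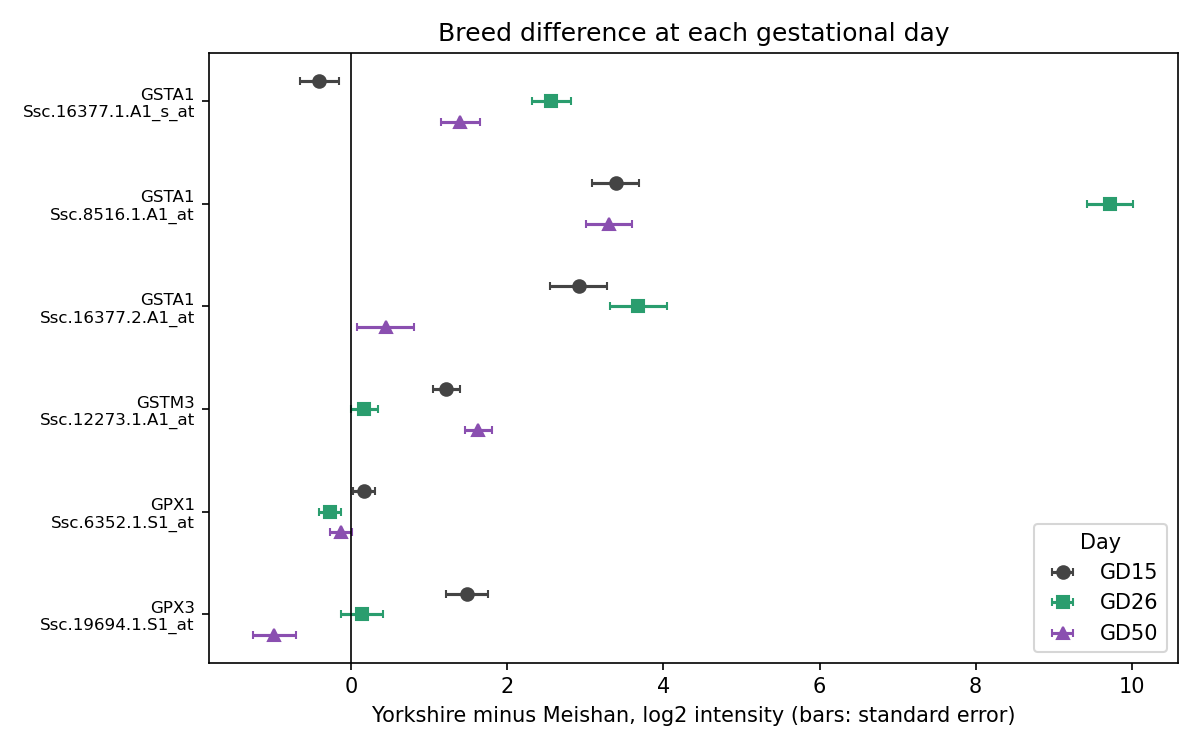
Yorkshire minus Meishan difference in log2 intensity (x axis) for each probe set (y axis) at GD15, GD26 and GD50, with standard errors as bars. GSTM3 and GPX3 lie above 0 at GD15 and near 0 at GD26, and at GD50 GSTM3 lies at 1.63 and GPX3 at −0.98. All differences are a description, and those of groups under an intensity of 100, such as Ssc.8516.1.A1_at at GD50, measure no fold.

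How closely the members ran together across the 18 arrays differed between pairs. GSTA1 Ssc.16377.1.A1_s_at and GSTM3 correlated at r = 0.895 in all, 0.990 over the 9 Meishan and 0.761 over the 9 Yorkshire arrays. GSTM3 and GPX3 correlated at 0.813, 0.791 and 0.972. Looser pairs were GSTA1 Ssc.8516.1.A1_at with GPX3, at 0.538 in all, and with GSTM3, at 0.650, and GSTA1 Ssc.16377.2.A1_at with GPX3 over the Meishan arrays, at 0.419. GPX1 followed GSTM3 at 0.264 in all, with 0.129 in Meishan and 0.693 in Yorkshire. These values are descriptions over arrays that share groups and gilts. Most Meishan values of Ssc.8516.1.A1_at and Ssc.16377.2.A1_at lay under 100. Their correlations thus rest in part on values with no measurable order. Among probe sets with 1 symbol outside the members, those most like GSTA1 Ssc.16377.1.A1_s_at were RPL15 (r = 0.954), DNAJA1 (0.930) and FMO5 (0.921). For GSTM3 they were LOC100510975 (0.954), LOC100524391 (0.953) and RPL15 (0.950). For GPX1 they were SERPING1 (0.913), KNOP1 (0.861) and GSTO1 (0.851), the last itself an omega-class glutathione transferase. For GPX3 they were CAPNS1 (0.947), TST (0.937) and SLC39A2 (0.928).

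Of the other genes of glutathione and peroxide metabolism, 75 had a probe set, and 76 of their 114 probe sets, for 63 genes, passed the filter. Some, such as those of GPX7, HMOX1 and SELENBP1, needed the arrays of a single day to pass. Their directions in the counts below were favoured in advance. In Meishan GD26 against GD15, 33 of the 76 rose and 17 fell, against 23.8% and 27% of all tested probe sets. In Yorkshire 27 rose and 18 fell, against 20.3% and 44.9%. From GD26 to GD50, 4 rose and 18 fell in Meishan, against 8.17% and 10.2% of all. In Yorkshire 3 rose and 20 fell in that step, against 5.73% and 7.86%. Read against all tested probe sets, the median change of the lists in the first step was 0.28 in Meishan and 0.24 in Yorkshire, against −0.06 and −0.47. In that step 20 list probe sets (26.3%) rose and 12 (15.8%) fell in both breeds and 3 (3.95%) went opposite ways, against 13.9%, 22.3% and 1.98% of all tested. From GD26 to GD50, 1 (1.32%) rose and 9 (11.8%) fell in both, against 2.85% and 3.02% of all. The adjusted p of these genes are from limma with Benjamini-Hochberg adjustment over the 9320.

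The remaining transferases moved in both directions. Of their 6 tested probe sets, 2 were higher and 3 lower at GD26 than at GD15 in Meishan, against 23.8% and 27% of all. In Yorkshire 1 was higher and 3 were lower, against 20.3% and 44.9%. PTGES, a glutathione-dependent enzyme that makes prostaglandin E2, rose 2.49-fold in Meishan (adjusted p = 0.00141) and 5.99-fold in Yorkshire (adjusted p = 3.67e-05). MGST1, a membrane-bound transferase of the endoplasmic reticulum and mitochondria, fell in Meishan by 1.10 ± 0.16 on the log2 scale and in Yorkshire by 0.44 ± 0.15. The Yorkshire call of MGST1 was lost without any 1 of 5 arrays, the 3 at GD15 and replicates 2 and 3 at GD26, and after median centring, where the change was −0.05 (adjusted p = 0.794). GSTK1, the kappa-class enzyme of mitochondria and peroxisomes, fell 1.47-fold and 2.03-fold. It was not called in Yorkshire after median centring (log2 −0.63, adjusted p = 0.0545) or in Meishan without GD26 replicate 1 or 3 (adjusted p up to 0.0595). At the second step GSTA4, an alpha-class enzyme for lipid aldehydes, fell 1.58-fold in Meishan and 1.62-fold in Yorkshire (adjusted p = 0.0130 and 0.0274). The Yorkshire call of GSTA4 was lost without any 1 of 5 arrays, GD15 replicates 1 and 2, GD26 replicates 2 and 3 and GD50 replicate 2, and the Meishan call without GD26 replicate 2 (adjusted p up to 0.0782 and 0.0520). PTGES was 3.06-fold lower in Yorkshire than in Meishan at GD15 and 4.18-fold lower at GD50, and GSTK1 was 2.11-fold lower there at GD26.

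All 3 other peroxidases that passed the filter, of 5 with a probe set, rose from GD15 to GD26 in both breeds. Of all tested probe sets, 13.9% did so. In that step GPX1 was higher in Meishan and GPX3 lower in Yorkshire. GPX2, the peroxidase of epithelia, was at least 2.81-fold higher in Meishan and at least 1.74-fold higher in Yorkshire (adjusted p = 2.86e-05 and 0.0108). GPX7, of the endoplasmic reticulum, was at least 1.61-fold and 1.44-fold higher. It exceeded 100 only on the GD26 arrays and passed the filter only through them. Its rise and later fall were therefore favoured in advance, and it adds nothing to the count of 3. The Yorkshire call of GPX7 was lost without a filter (adjusted p = 0.0717). GPX4, which reduces phospholipid peroxides in membranes, rose 1.52-fold and 1.74-fold (adjusted p = 0.0341 and 0.00160). The Meishan call of GPX4 was lost after quantile normalization (adjusted p = 0.0549), in the fit on all probe sets (0.0549) and without a filter (0.103). It was also lost without any 1 of 4 Meishan arrays, GD15 replicate 3, GD26 replicates 1 and 2 and GD50 replicate 1 (up to 0.0985). Without GD15 replicate 3 the log2 change of GPX4 was 0.35 instead of 0.60. The Yorkshire call of GPX2 was lost with intensities under 100 set to 100 (0.0862). GPX2 and GPX7 fell again in Meishan by GD50, by 1.08 ± 0.22 on the log2 scale for GPX2 and at least 1.61-fold for GPX7. None of the 3 differed between the breeds at an adjusted p under 0.05 at any day, the lowest being 0.0762 for GPX2 at GD26.

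Synthesis and turnover of glutathione moved in both directions. Of 13 tested probe sets, 5 were higher and 3 lower at GD26 than at GD15 in each breed. Of all, 23.8% were higher and 27% lower in Meishan, and 20.3% and 44.9% in Yorkshire. At GD50 against GD26, 3 of the 13 were lower in Meishan and 5 in Yorkshire, with 0 higher. Of all, 10.2% were lower and 8.17% higher in Meishan, and 7.86% and 5.73% in Yorkshire. GGT1, the cell-surface enzyme that cleaves glutathione outside the cell, was at least 2.98-fold higher in Meishan and 2.01-fold in Yorkshire at GD26, its GD15 level lying under 100. The 2 subunits of glutamate-cysteine ligase, the rate-limiting enzyme of synthesis, went opposite ways. The modifier subunit GCLM was at least 4.003-fold higher in Meishan and 1.78-fold higher in Yorkshire at GD26, and then fell 3.03-fold in Meishan and at least 1.78-fold in Yorkshire. The catalytic subunit GCLC fell 2.42-fold and 5.17-fold by GD26. The GCLM calls in Yorkshire were weak, at adjusted p = 0.0161 and 0.0471. The first was lost without a filter (0.0667) and without GD15 replicate 3 or GD26 replicate 1 (up to 0.0540). The second, with 1 GD50 array above 100, was lost with intensities under 100 set to 100 (log2 −0.73, adjusted p = 0.119), without a filter (0.166), in the fit on all probe sets (0.0897) and without any 1 of 7 of the 9 Yorkshire arrays, all but GD26 replicate 2 and GD50 replicate 1 (up to 0.124). IDH1, a source of NADPH for glutathione recycling, rose 3.46-fold and 5.18-fold. CTH, which makes cysteine for glutathione, fell at GD50 by 2.98-fold in Meishan and 4.70-fold in Yorkshire. Between breeds the glutamate and cysteine carrier SLC1A1 was lower in Yorkshire at GD15 and GD26, by 4.35-fold and 2.75-fold. ANPEP, an ectopeptidase that releases cysteine from glutathione fragments, was at least 2.22-fold lower there at GD50.

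**Figure D4:**
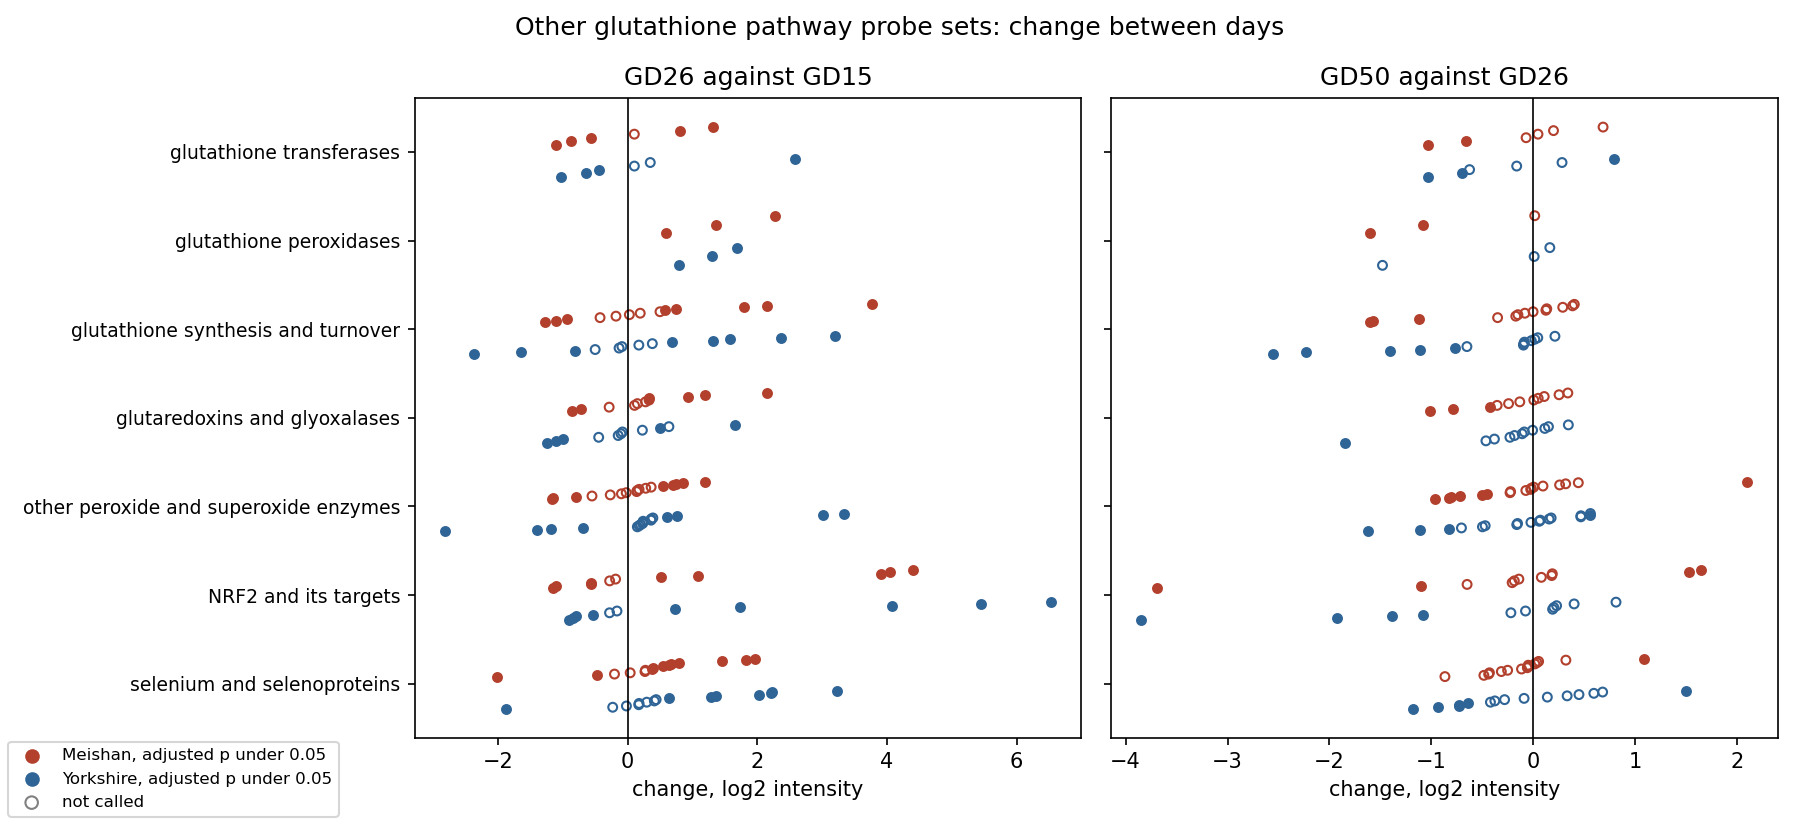
Change in log2 intensity (x axis) of the 76 tested probe sets of other glutathione and peroxide genes, by list (y axis), for GD26 against GD15 and GD50 against GD26. Filled points passed an adjusted p under 0.05 and open points did not, in Meishan (red) and Yorkshire (blue). The right panel has 4 risen and 18 fallen probe sets in Meishan and 3 and 20 in Yorkshire. The left one has 33 and 17, and 27 and 18. In the right panel's step 8.17% of all tested probe sets rose and 10.2% fell in Meishan, and 5.73% and 7.86% in Yorkshire. In the left panel's step the shares were 23.8% and 27%, and 20.3% and 44.9%.

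Glutaredoxins and glyoxalases reduce glutathionylated proteins and clear methylglyoxal. Of their 11 probe sets, 4 were higher and 2 lower at GD26 than at GD15 in Meishan, against 23.8% and 27% of all. In Yorkshire 2 were higher and 3 lower, against 20.3% and 44.9%. GLRX5, a mitochondrial protein for iron-sulfur clusters, rose 4.42-fold and 3.15-fold and then fell 2.02-fold and 3.60-fold. HAGH, the second glyoxalase, fell 1.81-fold and 2.15-fold on 1 of its 2 probe sets and 1.64-fold and 2.36-fold on the other. GLRX, the cytosolic glutaredoxin, was at least 2.67-fold lower in Yorkshire than in Meishan at GD26 and at least 3.38-fold lower at GD50, with both of its probe sets called. ESD, which hydrolyses S-formylglutathione, was 1.57-fold higher in Yorkshire at GD15.

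Of 17 probe sets of other peroxide and superoxide enzymes, 5 rose and 3 fell in Meishan by GD26, against 23.8% and 27% of all. In Yorkshire 4 rose and 4 fell, against 20.3% and 44.9%. SOD2, the mitochondrial superoxide dismutase, rose 2.28-fold and 1.69-fold. TXNIP, an inhibitor of thioredoxin, fell 1.74-fold and 2.62-fold. The 3 probe sets of TXNRD1, thioredoxin reductase, disagreed at that step, with log2 changes from −1.15 to 0.86 in Meishan and from −2.81 to 0.36 in Yorkshire, the lowest of each resting on GD26 means under 100. The probe set with the lowest changes needed its GD15 arrays to pass the filter, so its fall was favoured in advance. PRDX3, the mitochondrial peroxiredoxin, fell 1.42-fold and 1.77-fold by GD50, and the Meishan call was lost without any 1 of 5 arrays, GD26 replicates 2 and 3 and the 3 at GD50 (adjusted p up to 0.0577). The extracellular superoxide dismutase SOD3 had the widest breed difference of the named list genes. It was 2.34-fold higher in Yorkshire at GD15 (adjusted p = 0.0198), 53.3-fold at GD26 (adjusted p = 1.88e-09) and 17.2-fold at GD50 (adjusted p = 8.69e-08). The GD15 call of SOD3 was lost without replicate 2 or 3 of either breed, with an adjusted p of up to 0.0853, and without a filter (0.0554).

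Of 11 probe sets of the redox-responsive factor NRF2 and its targets, 5 rose and 4 fell from GD15 to GD26 in each breed. Of all tested probe sets, 23.8% rose and 27% fell in Meishan, and 20.3% and 44.9% in Yorkshire. HMOX1, haem oxygenase, was at least 10.7-fold higher at GD26 in Meishan and at least 20.1-fold in Yorkshire, and by GD50 it was at least 10.7-fold lower again in Meishan and 14.4-fold lower in Yorkshire. Besides the GD26 arrays, only 2 at Yorkshire GD50 exceeded 100, so HMOX1 passed the filter only with GD26. Its rise and fall were therefore favoured in advance. Of the 10 erythroid markers, 4 had a probe set. They summed to 14724 to 17519 in Yorkshire GD26, mostly through embryonic HBE1, and to 140 to 540 at GD15 and GD50. In Meishan GD26 they summed to 346 to 6609, which overlapped both GD15 groups and lay above both GD50 groups. The 1 erythroid probe set past the filter fell from GD15 to GD26, by log2 −1.10 in Meishan and −1.09 in Yorkshire. The part of erythroid cells in the HMOX1 changes was not tested. ME1, malic enzyme, was at least 7.30-fold and 12.6-fold higher at GD26 on 1 of its 2 probe sets, and at least 3.15-fold and 1.65-fold on the other, whose Yorkshire call was lost with intensities under 100 set to 100 (adjusted p = 0.149). TKT, of the pentose phosphate pathway, rose 2.13-fold and 3.32-fold, while FTL, the ferritin light chain, fell 2.14-fold and 1.79-fold on 1 of its 2 probe sets and 1.47-fold and 1.87-fold on the other, the 1.79-fold change not called after median centring (adjusted p = 0.0840). NQO1, a quinone reductase, fell by GD50 by 2.15-fold and 3.80-fold. EPHX1, an epoxide hydrolase, was 2.18-fold higher in Yorkshire at GD26.

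GPX1 and GPX3 carry selenium in their active site, and the list of selenium genes holds genes of selenium supply and other selenoproteins. At the first step 9 of its 15 tested probe sets rose and 2 fell in Meishan, against 23.8% and 27% of all, and 7 rose and 1 fell in Yorkshire, against 20.3% and 44.9%. SEPHS2, which makes the selenium donor, rose 3.54-fold and 9.36-fold on 1 of its 2 probe sets and 1.60-fold and 2.44-fold on the other. LRP2, an uptake receptor that binds selenoprotein P, rose 3.89-fold and 4.69-fold on 1 of its 2 probe sets and 2.75-fold and 4.63-fold on the other. SELENOM, a selenoprotein of the endoplasmic reticulum, rose at both steps, by 1.46-fold and 2.12-fold in Meishan and by 4.08-fold and 2.83-fold in Yorkshire, and its first Meishan call was lost without GD26 replicate 2 (adjusted p = 0.0540). SELENBP1, a selenium-binding protein, was at least 1.57-fold and 1.19-fold lower at GD26. It exceeded 100 only on GD15 arrays and passed the filter only through them, so its fall was favoured in advance. The Yorkshire call of SELENBP1 was lost after quantile normalization and median centring (adjusted p = 0.0743 and 0.0660) and without GD15 replicate 1 (0.0562). It was also lost with intensities under 100 set to 100 (0.0610) and without a filter (0.0820). SELENOW was 2.95-fold higher in Yorkshire than in Meishan at GD50 (adjusted p = 3.21e-06).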

How the data were processed

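The authors derived log2 intensities from the scanner files with the Bioconductor packages affy and GCRMA and deposited them as 1 table. The submitters' processing notes also name RMA, and versions are not given in the sources used here. GCRMA makes dim values low and tight, so a fold against a group mean under 100 is given as a bound. The raw files were not used here. Intensities in the text are 2 to the power of the deposited value.

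Probe sets above 100 on at least 6 arrays were kept (9399, of which 79 controls), and limma 3.58.1 in R 4.3.3 (lmFit, eBayes) was fitted to them, in 1 fit per breed for changes between days and in 1 fit over the 6 groups for breeds. P-values were Benjamini-Hochberg adjusted over the 9320 without controls, with a threshold of 0.05, and for GSTA1, GSTM3, GPX1 and GPX3, which were chosen by their levels, the fits' differences and standard errors are given as a description without p-values. Symbols came from the platform annotation, updated by gene identifier, with 10099 probe sets of 1 symbol. Named genes of the lists were those called in the same direction in both breeds at a step, up to 4 per list and step by the smaller change, and the one with the largest called breed difference at each day. The genes most like a member were the 3 with the highest Pearson r with its brightest probe set over the 18 arrays. The members and lists were chosen with earlier results of these data known. Arrays within a group correlated with each other at 0.948 to 0.991, and no pair of arrays had more than 0.987% identical values. The fits were tested on simulated data. Of 21 pairs of arrays with the same replicate number, 9 deviated together at r over 0.1 (range −0.348 to 0.328). No pairs of unlike number were set beside them, so this does not decide whether arrays were paired. The main fits did not take the numbers as pairs. Alternatives were the order of filter and fit, other filters, quantile normalization, median centring, a floor of 100, a mean-variance trend, Bonferroni, a replicate block, other sample sets, the brightest probe set of a gene, and leaving out each array. Precision is limited by 3 arrays a group. A search for motifs in promoters was not run, since no sequences were used here. Plots were made in matplotlib 3.10.9 under Python 3.11.15.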

Additional observations from a re-analysis of the deposited data

Results flagged for a closer look

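On GSTA1 Ssc.8516.1.A1_at every Meishan array was lower at GD26 than at GD15 and every Yorkshire array was higher, and the Yorkshire change minus the Meishan change was 6.33 ± 0.42 on the log2 scale. The Meishan GD26 arrays lay under 100, so this value measures no size, and with intensities under 100 set to 100 it was 2.77. The difference was not tested, because the probe set was chosen for it.

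For 32 changes that named list genes made in both breeds, the difference between the breeds was tested in the limma fit over the 6 groups, and 7 passed an adjusted p under 0.05. The share of all tested probe sets that passed was not taken, so nothing is read from this count. For GD26 against GD15 the Yorkshire change exceeded the Meishan change by 1.26 ± 0.38 for PTGES (adjusted p = 0.0177), by 0.66 ± 0.21 for MGST1 (0.0223), by 1.40 ± 0.26 for 1 of the 2 probe sets of SEPHS2 (8.50e-04) and by 1.48 ± 0.26 for SELENOM (5.84e-04). It was below the Meishan change, with a difference of −1.66 ± 0.28, for 1 of the 3 probe sets of TXNRD1 (adjusted p = 4.60e-04) and of −0.59 ± 0.18 for TXNIP (0.0169). The other SEPHS2 probe set had a difference of 0.61 (adjusted p = 0.111). For GD26 against GD15 the median change of all tested probe sets was −0.47 in Yorkshire and −0.06 in Meishan. The differences between breeds in a change were not examined under other scalings of the arrays, so the part of this shift in them was not tested. The TXNRD1 value rests on intensities under 100, since the Yorkshire GD26 arrays read 40.3 to 67.7, and with intensities under 100 set to 100 it was −0.79. For GD50 against GD26 the difference was −0.82 ± 0.21 for NQO1 (adjusted p = 0.0386).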

How the results depend on the processing

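Differences between the breeds at GD26 and GD50 and Yorkshire changes from GD15 to a later day involve Yorkshire arrays with lower medians. In Yorkshire GD50 against GD26, where both groups had lower medians, the median change was −0.07. Why the medians of these 6 arrays were lower was not tested. Dim GSTA1 and list values have bounds only. The members' calls here describe the fits and test nothing. Over 28 alternatives, GSTM3 kept its sign and its call at GD15 and GD50, from 1.10 to 1.30 and from 1.52 to 2.05. Filters, Bonferroni, the trend, the replicate block, 1 fit per day and leaving out arrays of another day cannot change a difference. A sign kept under these alternatives was therefore fixed in advance. GPX3 at GD15 kept its sign and lost its call under Bonferroni alone (1.49). GPX3 at GD50 kept its sign and was not called under Bonferroni (−0.98), median centring (−0.56) and quantile normalization (−0.62). Median centring turned GPX1 to 0.079 at GD26 and 0.29 at GD50 and brought GSTM3 at GD26 past the threshold (0.52). GPX3 at GD26 ranged from −0.21 to 0.35 when single arrays were left out, the lowest without Meishan GD26 replicate 1. The cause was not tested.

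Of the list probe sets, Bonferroni left 8 risen and 0 fallen in Meishan GD26 against GD15, 0 and 4 in Meishan GD50 against GD26, 8 and 2 in Yorkshire GD26 against GD15, 0 and 3 in Yorkshire GD50 against GD26, and 0 higher and 2 lower, 2 and 3, and 4 and 5 in Yorkshire at GD15, GD26 and GD50. Median centring gave 46 risen and 9 fallen in Yorkshire GD26 against GD15, 10 lower at GD26, and 24 higher and 10 lower at GD50. Of all 9320 tested probe sets, centring called 2703 risen and 2860 fallen in Yorkshire GD26 against GD15. For the breeds it called 1777 higher and 2064 lower at GD26, and 1951 and 2102 at GD50. The main counts for the breeds were 5 higher and 11 lower at GD15, 13 and 21 at GD26, and 12 and 28 at GD50. Of all tested probe sets, 4.92% were higher and 4.88% lower at GD15, 10.7% and 42.5% at GD26, and 10.9% and 45.6% at GD50, in the main fit. Higher at GD15 were 8 with the fit on all probe sets and 8 after quantile normalization, which called 530 of all 9320 higher there. For alternatives other than these 2 normalizations no share of all was taken. Higher at GD50 were 6 with the brightest probe set of each gene. In Yorkshire GD50 against GD26, 5 rose with the mean-variance trend and 6 in 1 fit over both breeds. Leaving out single arrays gave 2 to 5 higher at GD15 (2 without Meishan GD15 replicate 2 or Yorkshire GD15 replicate 2), and for Yorkshire GD50 against GD26 13 to 17 fallen (13 without Yorkshire GD15 replicate 1 or 2 or GD26 replicate 2) and 1 to 2 risen (1 without Yorkshire GD15 replicate 1 or 2, GD26 replicate 3 or GD50 replicate 2). Of 82 called values of named list genes, 52 were not called under Bonferroni, 18 lost their call under some other alternative and 0 turned sign. The replicate block moved the count of risen list probe sets in Meishan GD26 against GD15 from 33 to 31 and no count by over 1.5 times, and of the named calls it ended that of GSTA4 in Yorkshire GD50 against GD26 (adjusted p = 0.0511).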
